A study of Homo sapiens with 5 samples.

Results

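The comparison set 2 lines of PC-3, a human prostate cancer cell line, against each other, each labelled as carrying a different hairpin against TRIB1 (shTRIB1-1 and shTRIB1-2). They make up 2 of the 5 Affymetrix arrays of the series. The members were the genes above a level of 6 on either of these arrays, which left 10412 of 19775 genes, and a level is the log2 of the deposited intensity. The other arrays held PC-3 with a hairpin against GFP (shGFP), which served as the hairpin control, and PC-3 without a named hairpin from a flat (2D) and from a spheroid culture. PC-3 came from a bone metastasis and grows without androgen. Per the labels, none of the cells was treated, and both TRIB1 lines carry the genotype TRIB1 depletion. The study made these lines to find genes that depend on TRIB1. Each line is represented by 1 array, so no difference has a replicate check, and no p-value is given. The labels name no clones, no selection and no number of cultures, and no source used here gives the hairpin sequences.

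A short hairpin RNA is processed by the cell into a small interfering RNA that guides the silencing complex to matching messenger RNAs. Lines made with different hairpins against the same gene share the intended target, and they can differ in every other matched transcript, in their integration sites and in the cells that were selected. TRIB1 is a pseudokinase that binds the ubiquitin ligase COP1 and presents C/EBP transcription factors to it for degradation, and it also binds the kinase MEK1. Genes were compared within this pair alone, and the shGFP, 2D and spheroid arrays are given beside them as levels.

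The target itself did not separate the lines. TRIB1 lay at 11.91 on the shTRIB1-1 array, 11.77 on shTRIB1-2, 11.97 on shGFP, 11.04 on 2D and 11.23 on spheroid. The TRIB1 hairpin arrays were thus within 0.15 of each other, both were above 2D and spheroid, and neither was clearly below shGFP. The arrays are therefore called by their labels, and each direction is that of the labelled array. The epithelial identity of the cells was checked with EPCAM, CDH1, KRT8, KRT18 and KRT19, which lay between 10.52 and 13.04 on the hairpin arrays. The luminal prostate marker KLK2 was at 4.38 on shTRIB1-1 and 4.56 on shTRIB1-2, and KLK3 was at the same 6.90 on all 5 arrays. The measured defining markers of basal cells (KRT5 and KRT14) and neuroendocrine cells (CHGA and SYP) stayed under 6. Other genes listed for such cells did reach 6, with the basal keratin KRT15 at 7.77 on shTRIB1-1 and 9.47 on shTRIB1-2. In the same order CD44 lay at 10.86 and 10.14, ITGA6 at 9.82 and 10.44 and the neuroendocrine gene ENO2 at 7.10 and 7.14. Of the 12 measured markers of blood, endothelial cells and fibroblasts, HBB, PECAM1 and COL1A1 reached 6, with COL1A1 at 8.30 and 8.41, and their part in any result was not tested. The array medians were 32.97 and 33.26 in intensity, and the 5′ to 3′ ratio of actin was 0.445 and 0.442.

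A difference is always the shTRIB1-1 level minus the shTRIB1-2 level, so a value of 1 is 2-fold higher on shTRIB1-1. At least 2-fold apart were 532 genes, which is 5.11% of those measured. Of these, 212 (2.04%) were higher on shTRIB1-1 and 320 (3.07%) were higher on shTRIB1-2. The differences were 4-fold or more in 23 and 49 genes, and 8-fold or more in 1 and 8 genes. The SD of the difference over all genes was 0.48, and the median was 0. In 51 of the 212 genes and 102 of the 320 genes the lower array lay under 6, where the size of a difference rests on a signal near background. Genes just past the limit were SMAD7 at 1.0023 and DEPTOR at -1.0024, and genes just short of it were PRKAB2 at 0.99907 and TMEM250 at -0.99969.

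The pair was farther apart than either line was from the hairpin control. Of the genes measured in each pair, 5.11% were at least 2-fold apart between the TRIB1 lines, 3.81% between shTRIB1-1 and shGFP, and 2.14% between shTRIB1-2 and shGFP. The flat culture differed from shGFP in 4.25% of genes and from the spheroid culture in 10.3%. The shGFP level lay between the TRIB1 lines for 155 of the 212 genes (73.1%) and 270 of the 320 genes (84.4%), against 40.7% of all genes. Since a gene far apart in a pair leaves more room between the lines, these shares describe the control's place and no more.

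Where shGFP was 2-fold away from only shTRIB1-1, 85 of the 212 genes and 116 of the 320 genes were counted. Away from only shTRIB1-2 were 38 and 55 genes. On both lines and in the same direction were 6 genes and 1 gene, on both in opposite directions 3 and 15 genes, and on neither 80 and 133 genes. These counts share the shGFP array, and an unusual level on it enters both differences.

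**Figure D1:**
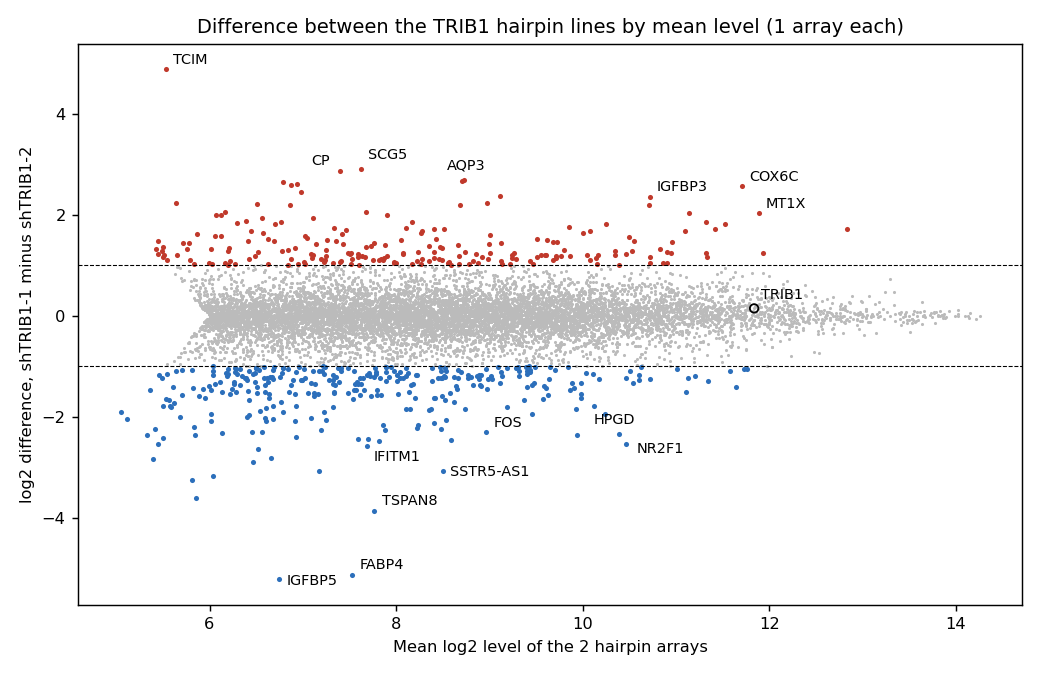
Each point is a gene, with the mean level of the hairpin arrays on the x axis (log2) and the log2 difference, shTRIB1-1 minus shTRIB1-2, on the y axis, for 1 array per line. The 212 red points are at least 2-fold higher on shTRIB1-1, the 320 blue points at least 2-fold higher on shTRIB1-2, the dashed lines mark 2-fold, and TRIB1 (open circle, 0.15) lies inside them.

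In the plot of difference against mean level, wide differences were most frequent among weak signals. Of 245 genes with a mean level under 6, 20.4% were 2-fold apart, against 6.01% between 6 and 8, 4.47% between 8 and 10 and 3.27% between 10 and 12. Above 12 there was 1 such gene of 352, and this was the metallothionein MT2A.

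Metallothioneins are small proteins that bind zinc, copper and cadmium through their many cysteines, and most of their genes lie next to each other on chromosome 16. Metal ions switch them on through the zinc-sensing factor MTF1, which binds short metal response elements in their promoters. The promoters of MT2A and MT1X are shown for the metallothioneins, those of IFI6 and IFITM1 because they have the widest differences of the interferon list, and those of CXCL2 and CCL20 because they stand for the chemokines. Each sequence is the 250 bases before the gene's start in RefSeq (GRCh38.p14), read along the gene. Capitals mark matches, on either strand, to a metal response element core (TGCACNC or TGCGCNC) in MT2A and MT1X, to an interferon response core (TTTC, any 2 bases, TTTC) in IFI6 and IFITM1, and to an NF-kB core (GGGA, any 4 bases, CC) in CXCL2 and CCL20. MT2A covers chr16:56608334-56608583 and MT1X covers chr16:56682220-56682469, both on the plus strand. IFI6 covers chr1:27672193-27672442 on the minus strand and IFITM1 covers chr11:313790-314039 on the plus strand. CXCL2 covers chr4:74099196-74099445 on the minus strand and CCL20 covers chr2:227813592-227813841 on the plus strand.
MT2A: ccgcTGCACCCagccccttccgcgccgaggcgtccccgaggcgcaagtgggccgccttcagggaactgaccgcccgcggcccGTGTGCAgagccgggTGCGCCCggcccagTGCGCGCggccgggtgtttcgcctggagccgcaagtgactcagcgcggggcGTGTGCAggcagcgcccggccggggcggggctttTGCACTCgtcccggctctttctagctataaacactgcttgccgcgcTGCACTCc
MT1X: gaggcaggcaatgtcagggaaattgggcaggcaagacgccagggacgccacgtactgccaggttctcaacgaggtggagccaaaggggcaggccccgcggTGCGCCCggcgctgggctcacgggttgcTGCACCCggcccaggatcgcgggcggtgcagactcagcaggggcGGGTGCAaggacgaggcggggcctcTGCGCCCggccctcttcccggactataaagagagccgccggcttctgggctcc
IFI6: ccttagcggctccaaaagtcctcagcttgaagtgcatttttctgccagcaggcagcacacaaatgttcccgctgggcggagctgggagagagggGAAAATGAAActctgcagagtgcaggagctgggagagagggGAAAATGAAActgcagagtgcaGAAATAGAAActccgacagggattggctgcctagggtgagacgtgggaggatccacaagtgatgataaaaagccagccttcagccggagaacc
IFITM1: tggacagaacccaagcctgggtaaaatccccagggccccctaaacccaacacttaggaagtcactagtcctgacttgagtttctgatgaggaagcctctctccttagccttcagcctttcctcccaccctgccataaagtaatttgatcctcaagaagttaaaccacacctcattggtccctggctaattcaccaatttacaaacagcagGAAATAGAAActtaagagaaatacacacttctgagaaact
CXCL2: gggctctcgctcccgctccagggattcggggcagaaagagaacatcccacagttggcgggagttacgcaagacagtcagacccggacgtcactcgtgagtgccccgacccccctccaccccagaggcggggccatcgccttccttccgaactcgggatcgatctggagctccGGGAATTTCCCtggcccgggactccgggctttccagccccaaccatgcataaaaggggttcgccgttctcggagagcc
CCL20: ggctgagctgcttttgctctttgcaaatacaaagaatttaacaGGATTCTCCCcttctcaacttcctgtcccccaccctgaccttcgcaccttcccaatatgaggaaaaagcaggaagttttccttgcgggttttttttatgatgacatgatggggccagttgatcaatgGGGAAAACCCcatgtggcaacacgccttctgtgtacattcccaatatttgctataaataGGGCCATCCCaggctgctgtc
MT2A held 7 metal core matches and MT1X 4, and as many were found in 0.03% and 0.37% of all 27305 promoter windows, each cut to its first 250 bases. The other shares in this paragraph use the same cut, while motif shares given further below use whole windows, which are longer. IFI6 held 3 interferon core matches (0.03% of windows) and IFITM1 held 1 (3.07%). CXCL2 held 2 NF-kB core matches that overlap each other (4.78% of windows held as many), and CCL20 held 3 (0.85%). A match describes the letters of the window and is neither a site nor a cause.

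The metallothioneins were higher on shTRIB1-1. All 7 above the level filter, which are MT1E, MT1F, MT1G, MT1H, MT1HL1, MT1X and MT2A, were at least 2-fold higher, by 1.33 to 2.19, by the probe set that stands for each gene. As the median over probe sets MT1E differed by 0.93 and MT1G by 0.71, both short of 2-fold, and a further MT1E probe set gave 0.37. MT2A lay at 13.70 on shTRIB1-1, 11.97 on shTRIB1-2, 12.14 on shGFP, 12.07 on 2D and 12.72 on spheroid. MT1X lay at 12.90, 10.87, 11.06, 11.03 and 11.97 in the same order, a difference of 2.03. MT1F lay at 11.81, 9.62, 9.83, 9.80 and 10.45. For these genes shTRIB1-1 was the highest of the 5 arrays, the spheroid array came next, and shTRIB1-2 lay with shGFP and 2D. Their probe sets are of the kind that can detect several near-identical copies, so the members cannot be told apart, and the block may count fewer independent genes than it names. MT1M, whose probe set is not of that kind, was at 2.49 and 2.70 and did not reach the filter. The MT1G probe set that is not of that kind was at 3.46 and 3.37, also under the filter. The 2-fold difference of MT1G thus rests on a probe set of the shared kind.

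Zinc transporters were mixed. SLC39A8, which imports zinc, differed by 1.41 (9.37 on shTRIB1-1 and 7.96 on shTRIB1-2, with shGFP at 8.82). As the median over its probe sets this difference was 0.35. SLC39A6, another importer, differed by -1.63, with shTRIB1-1 at 9.16 and the other arrays between 10.43 and 11.14, and its 4 probe sets gave -1.65 to -1.37. The exporter SLC30A1 differed by -0.86 and MTF1 by -0.49. Over the 14 listed metallothioneins and zinc transporters the median was 0.77, against 0 for all genes, with 7 members at least 2-fold higher and 1 lower (against 2.04% and 3.07% of all genes). Without probe sets of the shared kind 6 members were left and the median was -0.28, so the list's direction rests on the metallothioneins. The metal core was present in 29.3% of all promoter windows, 39.6% of those of the genes measured, 35.9% of those 2-fold higher on shTRIB1-1 and 37.5% of those 2-fold higher on shTRIB1-2.

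Interferon-stimulated genes with wide differences were mostly higher on shTRIB1-2. These genes answer the factor complex that IRF9 forms with STAT proteins, and they slow viruses at entry, copying or release. Of 30 members above the filter, 20 were lower on shTRIB1-1 and 9 were higher, with 7 members at least 2-fold lower (against 3.07% of all genes), 2 at least 2-fold higher (against 2.04%) and a median of -0.36. IFITM1, a membrane protein that hinders viral entry, lay at 6.40 on shTRIB1-1, 8.98 on shTRIB1-2, 6.42 on shGFP, 6.77 on 2D and 9.54 on spheroid, a difference of -2.58. IFI6, an inhibitor of apoptosis and of flavivirus replication, lay at 6.42, 8.23, 6.43, 6.84 and 8.87. IFI44L lay at 6.38, 7.94, 6.02, 7.15 and 9.48, and IRF9 at 6.73, 8.25, 6.99, 6.69 and 8.69. In these 4 genes shTRIB1-2 lay nearer the spheroid array than shGFP, and shTRIB1-1 lay nearer shGFP than the spheroid array. The others at least 2-fold lower on shTRIB1-1 were SP110 (-1.23), PARP9 (-1.17) and CMPK2 (-1.0025). CMPK2 passed the filter only on shTRIB1-2, at 6.54 against 5.54 on shTRIB1-1. Different probe sets of SP110 gave -1.43 to -0.21 and those of PARP9 -1.17 to -0.17.

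GBP1 and GBP2, 2 of the guanylate-binding proteins, were higher on shTRIB1-1. These are large GTPases that interferon gamma and inflammatory cytokines induce. GBP1 lay at 8.69 on shTRIB1-1, 7.46 on shTRIB1-2, 5.08 on shGFP, 7.07 on 2D and 8.21 on spheroid, a difference of 1.23. GBP2 lay at 8.09, 6.62, 5.78, 6.84 and 8.57, a difference of 1.47. Both TRIB1 lines were above shGFP for these genes. The related GBP3 was close between the lines, at 9.26 and 9.30. Relative to shGFP the interferon list had medians of 0.22 on shTRIB1-1 and 0.62 on shTRIB1-2. The interferon core was in the promoters of 18 of the 24 members with a window, GBP1 included, against 3.65% of all windows. It was in 2.58% of the windows of the genes measured, 3.85% of those 2-fold higher on shTRIB1-1 and 4.03% of those 2-fold higher on shTRIB1-2. Of the list members at least 2-fold lower on shTRIB1-1, IFITM1, IFI6 and IFI44L held it, and IRF9, PARP9, SP110 and CMPK2 did not. IFIT1 and IFIT3, which hardly differed, held it too. The list's median was -0.10 without probe sets of the shared kind and -0.13 at a level filter of 8, so its size is not settled by these arrays.

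Some chemokines and cytokines were 2-fold higher on shTRIB1-1. The chemokines named here draw neutrophils or lymphocytes, and the transcription factor NF-kB drives many of them together with its own inhibitors. Of 14 chemokines and cytokines above the filter 10 were higher, 4 by at least 2-fold and 1 lower by at least 2-fold (against 2.04% and 3.07% of all genes), and the median was 0.61. CXCL8, which attracts neutrophils, lay at 11.94 on shTRIB1-1, 10.26 on shTRIB1-2, 10.54 on shGFP, 8.62 on 2D and 9.76 on spheroid, and its 2 probe sets gave 1.68 and 1.92. CCL20, the ligand of CCR6, lay at 7.33, 5.46, 4.79, 3.96 and 6.18. IL18 lay at 10.83, 9.19, 9.54, 7.995 and 7.55. For each of these genes shTRIB1-1 was the highest of the 5 arrays. CXCL2 lay at 9.72, 8.28, 8.89, 4.86 and 7.21, a difference of 1.43 that was 0.34 as the median of its probe sets. CXCL3 and CXCL6 differed by 0.94 and 0.91, and CXCL1 and CXCL16 by 0.30 and -0.05. Against shGFP the list had a median of 0.83 on shTRIB1-1 and 0.04 on shTRIB1-2, and with no level filter the difference between the lines had a median of 0.08.

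The NF-kB list had 14 members above the filter, 10 higher and 3 lower, with a median of 0.49. SOD2 was the only member 2-fold apart (against 5.11% of all genes). SOD2, the mitochondrial superoxide dismutase, lay at 9.10 on shTRIB1-1 and at 6.999 to 7.67 on the other arrays. The feedback genes TNIP1, TNFAIP3 and NFKBIZ differed by 0.81, 0.76 and 0.75, short of 2-fold, and NFKBIA, CYLD and NFKBIB by 0.52, 0.18 and 0. TNFAIP3 lay at 8.43 on shTRIB1-1 and 7.67 on shTRIB1-2, both above the 6.36 of shGFP. The median of the list was -0.01 without probe sets of the shared kind, which left 5 members. The NF-kB core was in 7 of the 10 chemokine windows and 9 of the 13 windows of the NF-kB list, against 25.1% of all windows and 31.3% of those of the genes measured.

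A cytokine and its receptor stood on opposite sides. IL33, a nuclear alarmin, lay at 4.09 on shTRIB1-1, 6.14 on shTRIB1-2, 3.51 on shGFP, 3.91 on 2D and 5.38 on spheroid, so its difference of -2.05 starts from a signal near background. IL1RL1, its receptor, lay at 10.06, 7.38, 7.57, 8.26 and 10.43, a difference of 2.68, with probe sets from 1.30 to 2.68. TNFAIP6, a hyaluronan-binding protein that cytokines induce, lay at 8.21 on shTRIB1-1 and at 5.10 to 5.92 on the other arrays.

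**Figure D2:**
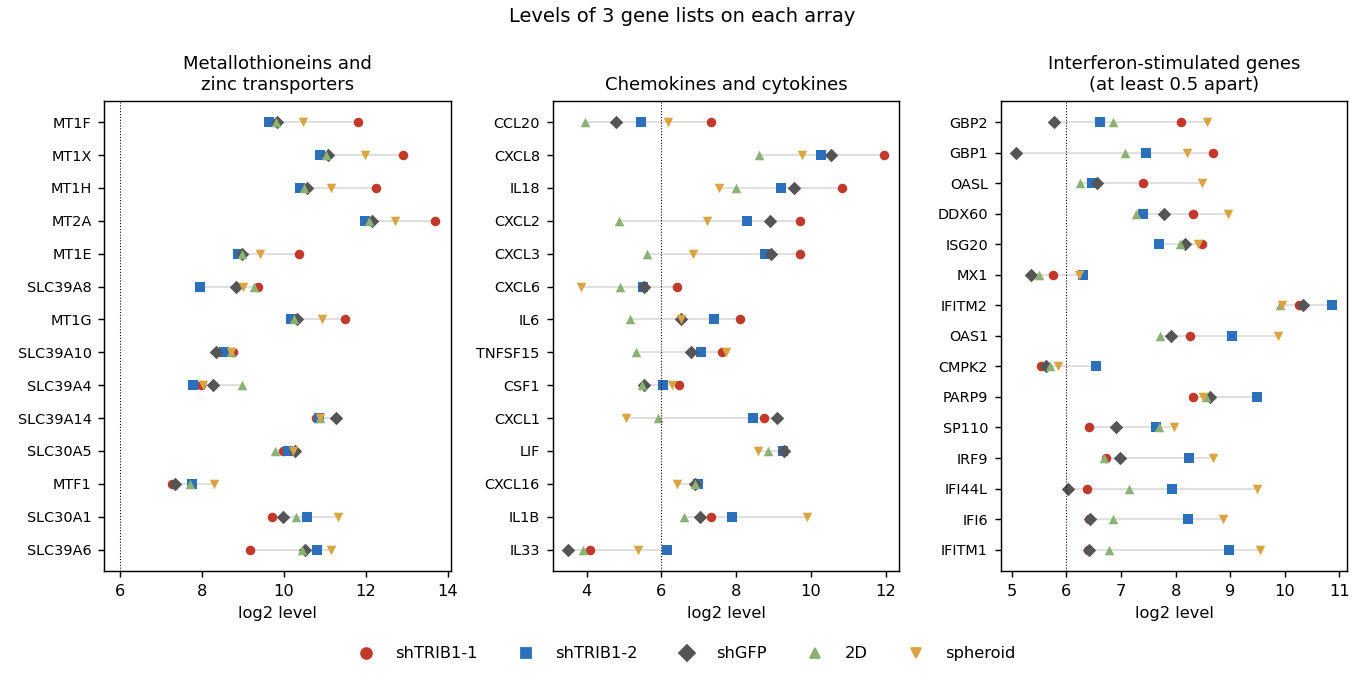
Log2 levels on the 5 arrays for the zinc and metallothionein list, the chemokines and cytokines, and the interferon-stimulated genes at least 0.5 apart, each point 1 array and the dotted line the level of 6. The metallothioneins and most chemokines have their red circle (shTRIB1-1) farthest right, and IFITM1, IFI6, IFI44L and IRF9 have the blue square (shTRIB1-2) to the right of the red circle and of shGFP.

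Of 8 prostaglandin and phospholipase genes above the filter 3 were higher and 5 lower on shTRIB1-1, with a median of -0.05, and the widest differences were those of PTGES and HPGD. PTGES, which makes prostaglandin E from its precursor, lay at 10.30 on shTRIB1-1, 7.93 on shTRIB1-2, 8.69 on shGFP, 9.51 on 2D and 11.17 on spheroid, a difference of 2.37 (2 probe sets, 1.74 and 2.37). HPGD, the dehydrogenase that inactivates prostaglandins, lay at 9.21, 11.56, 9.97, 9.94 and 11.89, a difference of -2.35, and its 4 probe sets gave -2.50 to -2.02. The line with more PTGES signal thus had less HPGD signal, while the spheroid array had the highest level of both. PLA2G12A, a secreted phospholipase, differed by 1.51, with probe sets from 0.00 to 1.68.

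IGF binding proteins, which hold insulin-like growth factors in the fluid around the cell, gave the farthest difference of all. IGFBP5 lay at 4.14 on shTRIB1-1, 9.36 on shTRIB1-2, 6.31 on shGFP, 4.32 on 2D and 6.44 on spheroid, a difference of -5.22. The other IGFBP5 probe set above the filter gave -2.17, and the median over all its probe sets was -1.27. IGFBP3 ran the other way, at 11.90, 9.54, 8.89, 8.87 and 9.99, with probe sets at 2.36 and 2.49. IGFBP6 differed by 1.77 and the receptor IGF1R by 1.13. For IGFBP5 shGFP lay between the lines, and for IGFBP3 both lines were above shGFP. Of the 11 listed members, 3 were at least 2-fold higher on shTRIB1-1 and 1 on shTRIB1-2 (against 2.04% and 3.07% of all genes).

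Lipid and fuel genes with a high signal on shTRIB1-2 were FABP4 and PDK4. FABP4, which carries fatty acids in fat cells and macrophages, lay at 4.96 on shTRIB1-1, 10.09 on shTRIB1-2, 6.24 on shGFP, 7.65 on 2D and 12.92 on spheroid, a difference of -5.13. PDK4, a kinase that inhibits pyruvate dehydrogenase, lay at 5.64, 8.71, 6.69, 5.79 and 9.19, a difference of -3.07. As the median of their probe sets FABP4 differed by -3.19 and PDK4 by -0.38. PPARG, the nuclear receptor of fat cell formation, differed by only -0.84 (10.78 and 11.62). ACSL4 and ELOVL6, which activate and lengthen fatty acids, were higher on shTRIB1-1 by 1.03 and 1.12. As the median over its probe sets ACSL4 differed by 0.28. The median of the 17 genes of the fatty acid list was -0.17.

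**Figure D3:**
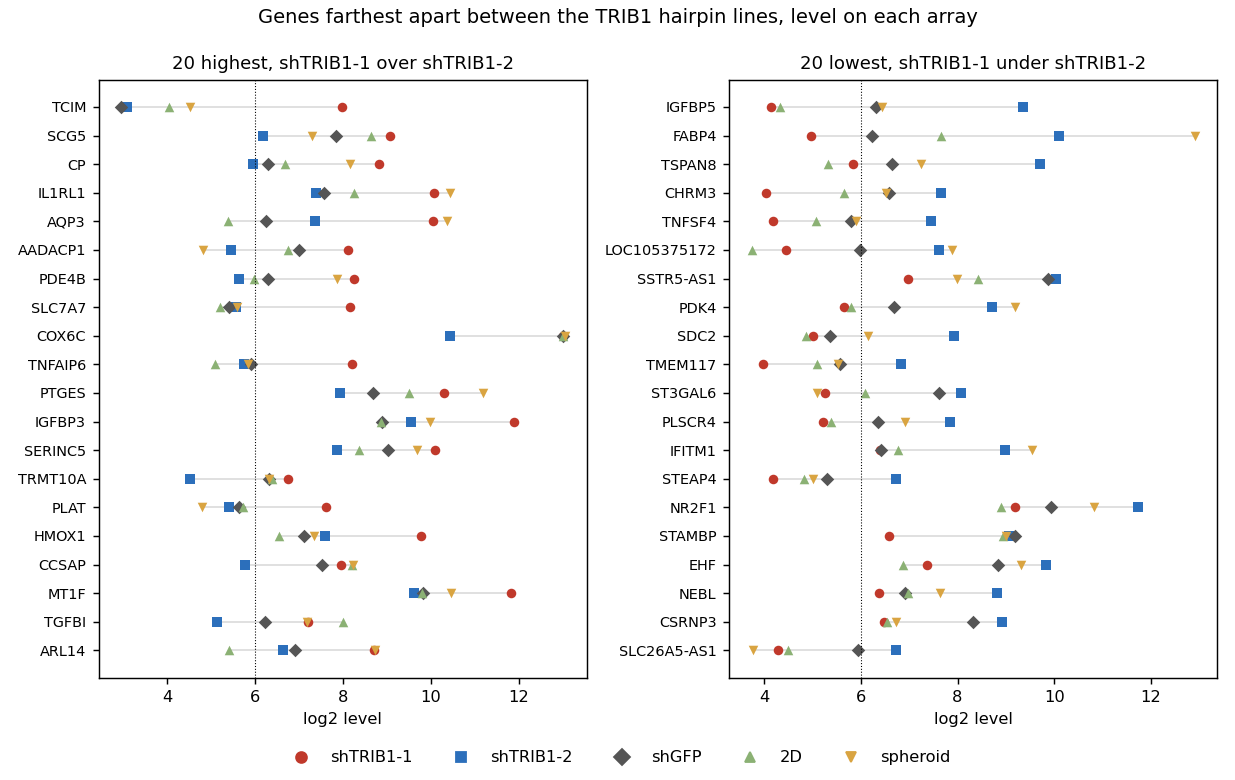
Log2 level on each of the 5 arrays for the 20 genes with the highest and the 20 with the lowest difference, shTRIB1-1 minus shTRIB1-2, with the dotted line at a level of 6. TCIM and SLC7A7 are high on shTRIB1-1 alone, COX6C is low on shTRIB1-2 alone, and the shGFP diamond lies between the lines for IGFBP5 and FABP4.

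The gene farthest toward shTRIB1-1 was TCIM, a small protein that enhances WNT signalling. TCIM lay at 7.97 on shTRIB1-1, 3.10 on shTRIB1-2, 2.95 on shGFP, 4.04 on 2D and 4.53 on spheroid, so it reached the filter on 1 array only, and its difference of 4.88 is against background. CP, the copper-carrying ferroxidase ceruloplasmin, lay at 8.83, 5.96, 6.30, 6.68 and 8.16, and its 3 probe sets gave 2.83 to 2.88. SCG5, a chaperone of a prohormone convertase, lay at 9.07, 6.17, 7.84, 8.63 and 7.29. CP was thus higher on shTRIB1-1 than on shGFP, whereas SCG5 was above shGFP on shTRIB1-1 and below it on shTRIB1-2. AQP3, a water and glycerol channel, lay at 10.04, 7.37, 6.24, 5.38 and 10.37, but its probe sets ran from 0.34 to 2.68 with a median of 0.55. PDE4B, which breaks down cyclic AMP, lay at 8.24, 5.63, 6.29, 5.98 and 7.85, with probe sets at 2.11 and 2.62. HMOX1, the heme-degrading oxygenase, lay at 9.78 on shTRIB1-1, 7.59 on shTRIB1-2, 7.11 on shGFP, 6.55 on 2D and 7.34 on spheroid. Of 18 NRF2 genes above the filter, HMOX1 included, 13 were higher and 5 lower on shTRIB1-1, with a median of 0.22. NQO1 differed by 0.64, the glutathione synthesis gene GCLC by 0.57 and AKR1C1, AKR1C2 and AKR1C3 by 0.50, 0.51 and 0.53, none of them 2-fold. SLC7A11, the cystine importer, differed by -1.39, with probe sets from -1.54 to -0.05, and AKR1B10 differed by -0.58.

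Behind IGFBP5 and FABP4, the largest differences toward shTRIB1-2 were those of TSPAN8, CHRM3 and TNFSF4, followed by the noncoding LOC105375172 (-3.17) and SSTR5-AS1 (-3.07) and by PDK4. TSPAN8, a tetraspanin of the gut and of carcinomas, lay at 5.84 on shTRIB1-1, 9.70 on shTRIB1-2, 6.64 on shGFP, 5.32 on 2D and 7.24 on spheroid. CHRM3, a muscarinic acetylcholine receptor, lay at 4.04, 7.66, 6.59, 5.64 and 6.51, and its 3 probe sets above the filter gave -3.62 to -1.69. TNFSF4, the ligand of the OX40 receptor of T cells, lay at 4.19, 7.44, 5.79, 5.07 and 5.91. These 3 genes were highest on shTRIB1-2 of all 5 arrays. SDC2, a heparan sulfate proteoglycan, lay at 5.01, 7.92, 5.36, 4.86 and 6.15, and ST3GAL6, a sialyltransferase, at 5.25, 8.06, 7.63, 6.09 and 5.08. For SDC2 the high shTRIB1-2 signal stood apart from shGFP, and for ST3GAL6 the low shTRIB1-1 signal did. NR2F1, an orphan nuclear receptor, lay at 9.20, 11.73, 9.93, 8.90 and 10.82. CLU, a secreted chaperone, lay at 6.78, 8.94, 7.20, 6.69 and 6.30, with 3 probe sets between -2.28 and -2.16, and LXN, a carboxypeptidase inhibitor, at 8.76, 11.12, 7.98, 8.73 and 8.02. Both were highest on shTRIB1-2.

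Several matrix, adhesion and contractile genes were 2-fold higher on shTRIB1-1. Of 20 YAP targets and actin binders above the filter 16 were higher, with a median of 0.41. MYL9, a myosin light chain, lay at 8.08 on shTRIB1-1, 6.13 on shTRIB1-2, 5.72 on shGFP, 5.56 on 2D and 4.96 on spheroid. The tropomyosins TPM4 and TPM1 differed by 1.16 and 0.99, with 3 probe sets of TPM4 from 0.84 to 1.16 and 4 of TPM1 from 0.90 to 1.10. ACTA2, smooth muscle actin, lay at 7.07 on shTRIB1-1 and at 4.80 to 5.08 on the other arrays, but the median of its probe sets was 0.28. Of 19 integrins and matricellular genes 4 were at least 2-fold higher and none 2-fold lower (against 2.04% and 3.07% of all genes), with a median of 0.47. The vitronectin receptor subunits ITGB5 and ITGAV differed by 1.46 and 1.20, the collagen receptor subunit ITGA2 by 1.04 and the adhesion protein TGFBI by 2.06. TGFBI passed the filter only on shTRIB1-1, at 7.20 against 5.14 on shTRIB1-2. ITGAV lay at 10.94 on shTRIB1-1 and at 9.74 to 9.95 on the other arrays. Of 20 collagens and laminins 3 were 2-fold higher (against 2.04% of all genes). These were COL8A1 by 1.55 (0.785 as the median over its probe sets), LAMB3 by 1.24 and COL4A2 by 1.20. SPARC, a collagen-binding matrix protein, went against these, at 7.42, 9.29, 7.31, 8.50 and 11.14, with probe sets at -1.92 and -1.88.

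Matrix proteases split by gene. PLAT, the tissue plasminogen activator, lay at 7.61 on shTRIB1-1 and at 4.80 to 5.72 on the other arrays. The gelatinase MMP9 and the membrane protease ADAM9 differed by 1.36 and 1.24. MMP1, the interstitial collagenase, lay at 5.30, 7.60, 7.29, 5.99 and 5.24, a difference of -2.30 in which shTRIB1-2 lay near shGFP. In all, 4 of 22 proteases, plasminogen genes and serpins were 2-fold higher on shTRIB1-1 and 1 was 2-fold lower (against 2.04% and 3.07% of all genes). Among these, PLAT, ADAMTS6 and MMP1 passed the filter only on the array where they were higher. ADAMTS6 lay at 6.09 on shTRIB1-1 and 4.76 on shTRIB1-2, and the median of its differences over probe sets was 0.0.

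In the TGF-beta and BMP list, 5 of 22 members were 2-fold higher on shTRIB1-1 and 2 were 2-fold lower (against 2.04% and 3.07% of all genes), with a median of 0.13. PMEPA1, a membrane protein that limits SMAD signalling, lay at 12.15 on shTRIB1-1, 10.12 on shTRIB1-2, 10.60 on shGFP, 11.45 on 2D and 10.02 on spheroid. The BMP target ID3 lay at 7.12 on shTRIB1-1 and at 4.48 to 5.13 on the other arrays. ID1 lay at 12.55, 11.31, 11.59, 9.96 and 9.83. The ligand TGFB2 and the inhibitor SMAD7 differed by 1.18 and 1.00, and the 3 TGFB2 probe sets gave 1.04 to 1.18. ID3 and SMAD7 (5.69 on shTRIB1-2) passed the filter only on shTRIB1-1, where they were higher. On the other side stood the BMP inhibitor SMAD6 at -1.62, whose median over probe sets was -0.30, and the co-receptor TGFBR3 at -1.22. Known SMAD targets thus stood on both sides, with PMEPA1, SMAD7, ID1 and ID3 higher on shTRIB1-1, SMAD6 lower, and SKIL and ID2 at -0.87 and -0.26. In all, 12 members were higher and 10 lower.

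Most WNT genes were lower on shTRIB1-1. Of 14 listed genes above the filter 9 were lower, 3 of them 2-fold (against 3.07% of all genes), and none was 2-fold higher, with a median of -0.34 that was -0.01 with no level filter. The receptor FZD6 lay at 9.004 on shTRIB1-1, 10.85 on shTRIB1-2, 10.04 on shGFP, 10.53 on 2D and 10.51 on spheroid. WNT5A, a ligand of the branch without beta-catenin, lay at 6.04, 7.82, 6.73, 5.05 and 7.09, with probe sets at -1.79 and -1.78. TCF4, an E-box factor that shares its name with an alias of the WNT effector TCF7L2 and is in the list by that name alone, lay at 6.95 on shTRIB1-1 and at 8.17 to 8.54 on the other arrays, and its 6 probe sets gave -1.35 to -0.98. FZD6 and WNT5A are thus the WNT genes proper among the 3 that were 2-fold lower. FZD6 and TCF4 were low on shTRIB1-1, and WNT5A was high on shTRIB1-2.

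Immediate early genes, which ERK signalling switches on within minutes, were set apart at the top of their list. FOS lay at 7.82 on shTRIB1-1, 10.12 on shTRIB1-2, 9.22 on shGFP, 4.51 on 2D and 4.61 on spheroid. EGR1 lay at 7.50, 9.57, 8.24, 4.82 and 4.94, with 3 probe sets from -2.07 to -1.62. The shGFP array lay between the TRIB1 lines for both, and all 3 hairpin arrays were far above the 2D and spheroid arrays. The ERK inhibitor SPRY4 differed by -1.36, ETV4 by -0.96 and SPRY1 by -0.75, whereas CCND1, the cyclin of early G1, differed by 0.83. These come from a list of 15 ERK feedback and ETS genes, of which 5 were higher on shTRIB1-1, 8 lower and 2 equal. That list had a median of -0.10, and SPRY4 was its only member 2-fold apart (against 5.11% of all genes). Of the other immediate early genes, FOSB differed by -0.85 and KLF6 by 0.60, and the immediate early list of 15 had a median of 0.13.

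The partners of TRIB1 were close in most cases. Of 12 measured members of this group 7 were higher and 5 lower on shTRIB1-1, with a median of 0.06. CEBPB lay at 12.72 on shTRIB1-1 and 12.58 on shTRIB1-2, CEBPD at 8.59 and 9.10, and CEBPG at 8.26 and 8.42. A further CEBPG probe set lay at 7.66 and 8.46, a difference of -0.81. TRIB3 lay at 10.88 and 11.25 and TRIB2 at 8.41 and 8.57. MAP2K1, which encodes MEK1, differed by 0.10, MAPK3 by 0.02 and AKT1 by 0.11. These values lie within the SD over all genes of 0.48 except those of CEBPD (-0.51) and of the further CEBPG probe set. In the ubiquitin ligase that works with COP1, DDB1 differed by -0.02, DET1 by 1.02 and the scaffold CUL4A by 1.23. DET1 lay at 6.54 on shTRIB1-1 and 5.51 on shTRIB1-2, and the median of its probe sets was 0.41. CUL4A lay at 8.25 on shTRIB1-2 and at 9.42 to 9.57 on the other arrays, but its probe sets ran from 0.16 to 1.23. COP1 and CEBPA did not reach the filter on either array.

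Cell cycle genes differed by little, and most in the same direction. Of 29 G2 and M phase genes 24 were higher on shTRIB1-1, none was 2-fold apart, and the median was 0.24. Of 29 DNA replication genes 20 were higher, again with none 2-fold apart, and the median was 0.14. The phosphatase CDC25C had the widest G2 difference, at 0.57 (7.30 on shTRIB1-1, 6.72 on shTRIB1-2, 7.55 on shGFP, 8.09 on 2D and 4.86 on spheroid). MCM5 of the replicative helicase differed by 0.53. Both TRIB1 lines lay below shGFP, with list medians of -0.43 and -0.65 for G2 and M phase and -0.28 and -0.32 for replication. CDKN1A, a cyclin-dependent kinase inhibitor, lay at 9.26, 7.55, 7.40, 7.62 and 8.94, a difference of 1.72, while MDM2, which degrades p53 and is also its target, differed by -1.32. The MDM2 probe sets ran from -1.32 to 0.03.

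Amino acid supply genes stood on both sides. Of 23 ATF4 targets 14 were lower and 9 higher on shTRIB1-1, 3 of them lower by 2-fold (against 3.07% of all genes), with a median of -0.20. SHMT2, which makes glycine in mitochondria, lay at 9.27 on shTRIB1-1, 11.21 on shTRIB1-2, 11.55 on shGFP, 10.91 on 2D and 11.09 on spheroid, and its 3 probe sets gave -2.16 to -1.93. The serine synthesis gene PSAT1 differed by -0.83 and the leucine importer SLC7A5 by -1.12. SHMT2, SLC7A5 and SLC7A11 were low on shTRIB1-1 and near the other arrays on shTRIB1-2, but the 3 SLC7A11 probe sets ran from -1.54 to -0.05. Of 23 lysosome and autophagy genes 18 were higher on shTRIB1-1, with a median of 0.33. The protease CTSB lay at 10.99, 9.71, 9.14, 8.54 and 9.12, and its 5 probe sets gave 0.78 to 1.33. Chaperones of the endoplasmic reticulum (23 genes, none 2-fold apart, median 0.15) and ribosomal proteins (14 genes, median 0.02) hardly parted.

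**Figure D4:**
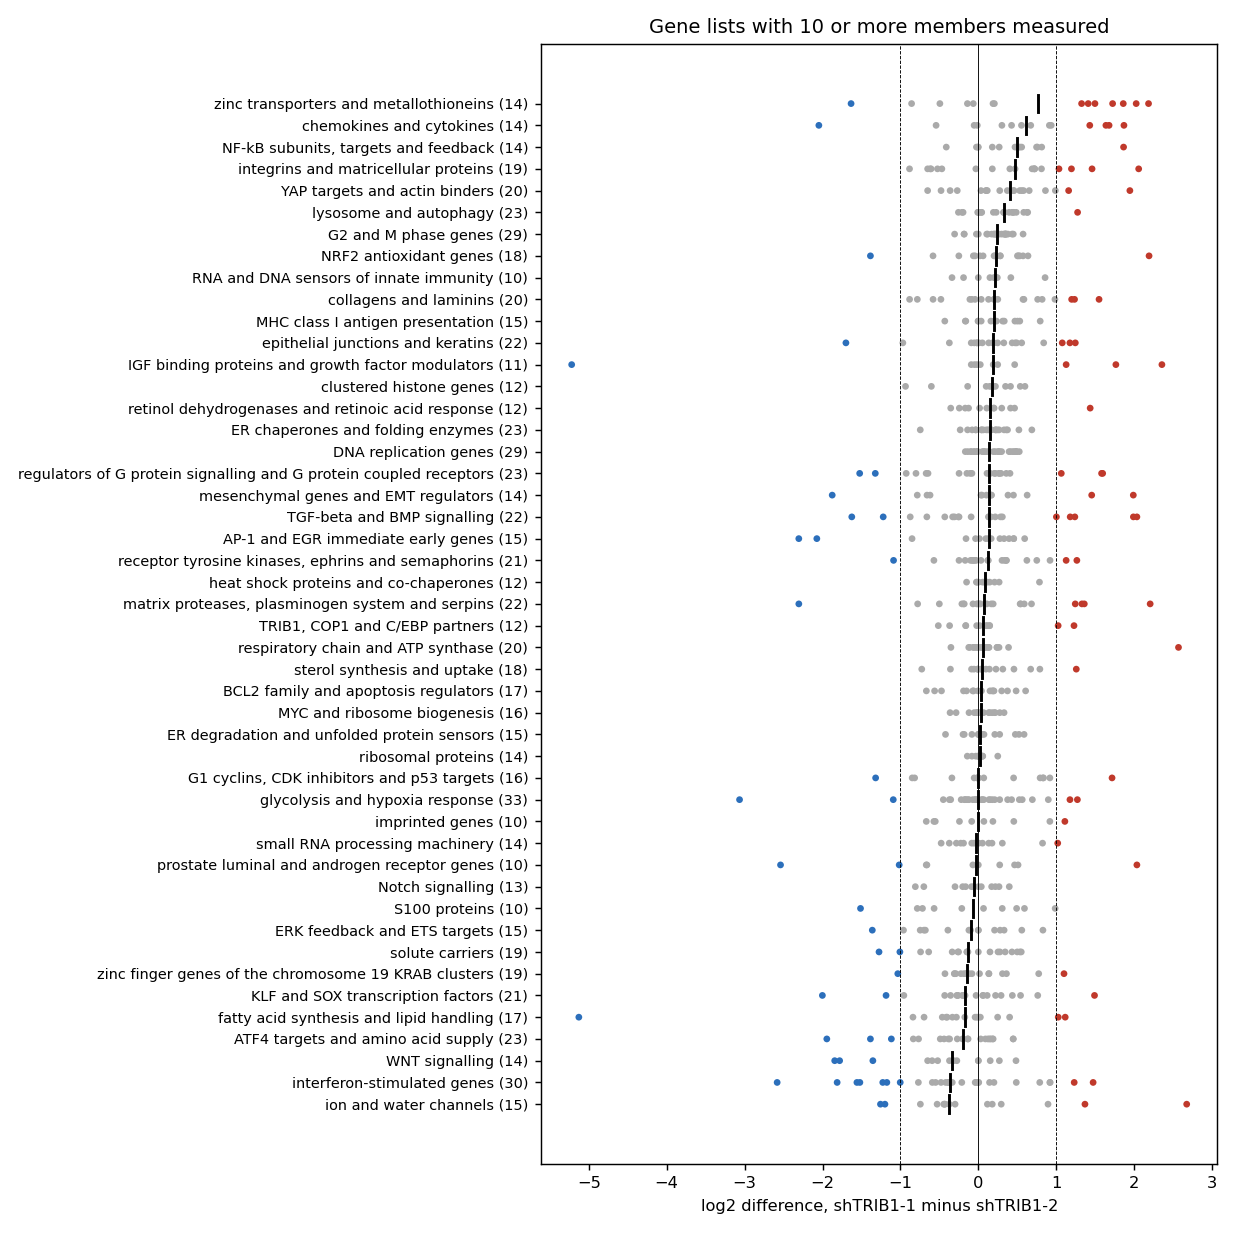
Log2 difference, shTRIB1-1 minus shTRIB1-2, of each member (points) of every gene list with 10 or more members above the level filter, with the number in brackets and the median as a black bar. Red points are at least 2-fold higher on shTRIB1-1 and blue points at least 2-fold higher on shTRIB1-2; medians run from the zinc and metallothionein list (0.77) down to the ion and water channels (-0.37).

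In the plot of list members, most lists held genes on both sides of 0, and the medians lay farthest above 0 for the zinc, chemokine and NF-kB lists and farthest below it for the interferon, WNT and channel lists. Over 56 lists, 839 of 1119 genes with a probe set reached the filter. The channel list had a median of -0.37, although AQP3 and the hemichannel PANX1 were higher on shTRIB1-1 by 2.68 and 1.37. The gap junction protein GJA1 and the potassium channel KCNMA1 were lower by -1.26 and -1.20.

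Some genes were set apart because a single array stood away from the other 4. With the other 4 arrays within 0.5 of each other and the single array at least 1 away, 28 genes were low on shTRIB1-1 and 8 were high. On shTRIB1-2 12 genes were low and 4 were high. On shGFP no gene was low and 1 was high (ATP8A2, which was under 6 on both TRIB1 hairpin arrays), on 2D 12 were low and 25 high, and on spheroid 27 were low and 57 high. A low gene had to reach a level of 6 on each of the other 4 arrays and a high gene on the single array, whichever array it was, so these counts reach beyond the members. This rule was chosen after the values were seen.

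Among the genes low on shTRIB1-1 alone, EXOSC3, a subunit of the RNA exosome, lay at 7.81 with the other arrays between 9.63 and 10.05, and its 3 probe sets gave -1.85 to -1.29. TMED2, a cargo receptor of early secretory vesicles, lay at 11.21 with the others between 12.26 and 12.65, and its 3 probe sets gave -1.25 to -1.05. MTOR, the kinase that couples nutrients to growth, lay at 5.59 with the others between 6.80 and 7.29. NDUFAB1, the mitochondrial acyl carrier protein, lay at 11.23 with the others between 12.29 and 12.55. TCF4 belongs here too, as given among the WNT genes. STAMBP, a deubiquitinase, lay at 6.58 with the others between 8.95 and 9.18, but its probe sets ran from -2.48 to 0.44. KRT15, a basal keratin, lay at 7.77 with the others between 9.27 and 9.47.

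Among the genes low on shTRIB1-2 alone, COX6C, a subunit of cytochrome c oxidase, had the widest gap. COX6C lay at 10.43 on shTRIB1-2 and at 12.997 to 13.04 on the other arrays, and it is measured by a single probe set. Of the 20 respiratory chain genes listed it was the only member 2-fold apart, a share near the 5.11% of all genes. The list had a median of 0.06. TRMT10A, a transfer RNA methyltransferase, lay at 4.52 with the others between 6.32 and 6.76, and its 2 probe sets gave 2.24 and 2.37. DLST, a subunit of the oxoglutarate dehydrogenase complex, lay at 8.38 with the others between 9.63 and 9.89. High on shTRIB1-1 alone were SLC7A7, a cationic amino acid transporter subunit (8.17 against 5.196 to 5.60), and ATP1B1, a sodium pump subunit (12.27 against 10.42 to 10.85). High on shTRIB1-2 alone were DNM3 (6.53 against 4.16 to 4.53), TMPRSS2 (7.09 against 5.62 to 6.09), ANXA2R (7.95 against 6.69 to 6.88) and TFF3 (7.02 against 5.85 to 5.98). For DNM3 and TFF3 the other arrays lay under 6. As the median over its probe sets TMPRSS2 differed by -0.12.

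**Figure D5:**
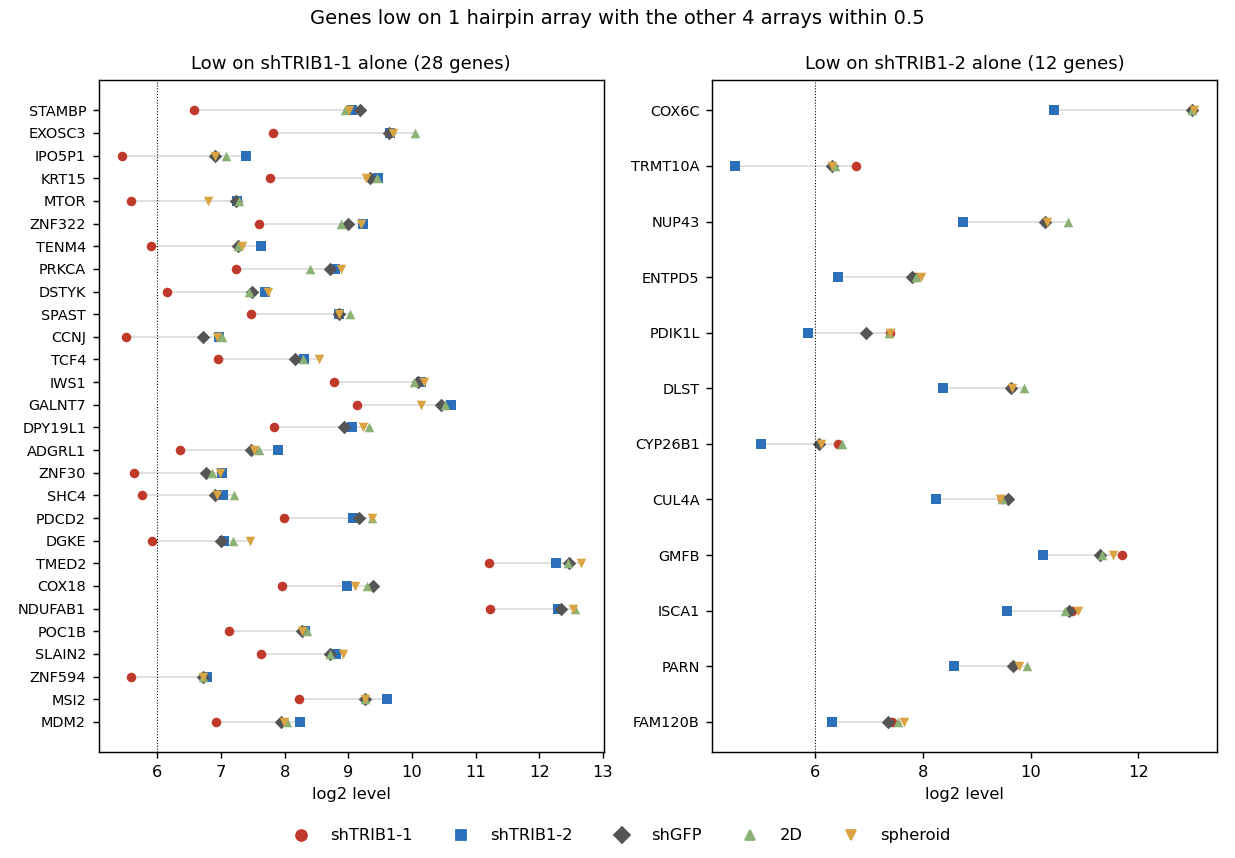
Log2 level on the 5 arrays for the 28 genes low on shTRIB1-1 alone and the 12 genes low on shTRIB1-2 alone, with the other 4 arrays within 0.5 of each other and the dotted line at a level of 6. STAMBP, EXOSC3 and IPO5P1 head the shTRIB1-1 panel and COX6C, at 10.43 against 12.997 or more, heads the shTRIB1-2 panel.

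Probe sets of a gene, which read different stretches of its transcripts on the same array, gave a technical check on direction. Of the 212 genes higher on shTRIB1-1, 95 had 2 or more probe sets above the filter, all in the same direction in 89 and all at least 2-fold in 42. Of the 320 genes higher on shTRIB1-2, 147 had several, all in the same direction in 133 and all at least 2-fold in 65. No gene had a probe set at least 2-fold apart in the opposite direction. Those with the widest agreement toward shTRIB1-1 included CP, TNFAIP6, IGFBP3, TRMT10A, PDE4B, SERPINB3, MT1X and CXCL8, and toward shTRIB1-2 HPGD, CLU, ST3GAL6, NEBL, SHMT2, HOMER1 and THRB. NEBL, a nebulin-related actin binder, gave -2.44 and -2.11 and THRB, a thyroid hormone receptor, -2.16 and -1.89. This agreement covers only probe sets above the filter. With all probe sets included, the median was -0.40 for NEBL and -1.52 for ST3GAL6. SERPINB3, a protease inhibitor of squamous epithelium, gave 1.81 and 2.50.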

How the data were processed

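The data were 5 Affymetrix expression arrays, 1 per condition, grouped from the labels. The authors deposited probe set intensities that they made with RMA, per the submitters' processing notes. No source used here gives its version. That the intensity values are on a linear scale was read from the values. RMA makes the arrays share nearly the same distribution, so a shift of most genes would not show. Precision is limited by the number of arrays. Log2 of each deposited intensity was taken, with no pseudocount, and called the level.

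Of 54675 probe sets, 41097 carried 1 gene symbol in the platform annotation, 1801 several and 11777 none, the 62 array controls included. Only those with 1 symbol named a gene. Of these, 41043 matched the RefSeq gene table (GRCh38.p14) by Entrez identifier, and 0 symbols were updated. Where a gene had several probe sets, the one brightest on average over all 5 arrays stood for it, and the gene entered at a level of at least 6 on either TRIB1 hairpin array. With 1 array per line, no test was made, and 2-fold (1 on the log2 scale) was the size reported. Python 3.11.15, pandas 2.3.3 and numpy 2.4.6 were used, and the counting was tested on simulated data.

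The pair, the 56 gene lists and the rules were chosen with earlier results of these data known. The named genes were the 25 highest and 25 lowest differences, the 15 genes in each direction with the widest difference shared by 2 or more probe sets, in each list the 4 widest and every member past 2-fold, the TRIB1 partners, the genes 2-fold from shGFP in opposite directions, and the genes that bound the 3 highest and 3 lowest windows of 20 neighbours. Genes with 1 array apart, and the metal response core, were chosen after the values were seen. Promoter windows came from RefSeq, and 8629 of the genes measured had 1. Alternatives were the median over probe sets, no probe sets ending in _s_at or _x_at (the shared kind), level filters of 8, of 6 on both arrays or none, 16 added before the log2, and removal of a trend with level in 50 bins.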

Additional observations from a re-analysis of the deposited data

Results flagged for a closer look

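The genes below lay at least 2-fold above shGFP on 1 TRIB1 hairpin array and at least 2-fold below it on the other. The difference between the lines was not tested, since each line has 1 array, and both distances share the shGFP array. Of these 18 genes, 15 were higher on shTRIB1-2. In these 15, shTRIB1-1 lay under 6 for all but RPS6KA6, LINC01003 and THRB, so most sizes rest on a signal near background. On shGFP, TNFSF4, LOC105375172, TMEM117 and STEAP4 were under 6 too. Medians over probe sets were smaller for several genes, at -1.27 for IGFBP5, -0.38 for PDK4, -1.26 for STEAP4, -1.19 for MUC5B and -1.08 for RPS6KA6. The differences below are those of the probe set that stands for each gene. IGFBP5 differed by -5.22, FABP4 by -5.13, CHRM3 by -3.62, TNFSF4 by -3.25, the uncharacterised RNA gene LOC105375172 by -3.17 and PDK4 by -3.07. TMEM117 differed by -2.85, the lipid scramblase PLSCR4 by -2.64, the metalloreductase STEAP4 by -2.54, the mucin MUC5B by -2.32, the adaptor PAG1 by -2.29 and the kinase RPS6KA6 by -2.26. LINC01003 differed by -2.23, the thyroid hormone receptor THRB by -2.16 and VSIG1 by -2.05. The 3 genes higher on shTRIB1-1 were SCG5 at 2.90, the pseudogene AADACP1 at 2.65 and the membrane protein SERINC5 at 2.24.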

How the results depend on the processing

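No paired analysis was possible because each line has 1 array and the labels carry no replicate numbers. The counts of 212 and 320 genes were 137 and 197 when each gene took the median of its probe sets, and 143 and 182 at a level filter of 8. They ranged from 161 to 223 and from 218 to 366 under the other alternatives. With the median over probe sets, 123 of the 212 and 191 of the 320 genes were still 2-fold apart. Of the lists with a median of at least 0.1 in size, these turned sign. At a level filter of 8 they were -0.095 for RNA and DNA sensors, -0.0018 for collagens and laminins, -0.0084 for retinol genes, 0.0084 for solute carriers, 0.13 for chromosome 19 zinc fingers and -0.11 for fibroblast markers. Without probe sets of the shared kind they were -0.0054 for NF-kB genes, -0.28 for zinc genes and 0.015 for the zinc fingers. With no filter they were -0.016 for IGF binding proteins, 0.089 for blood and endothelial markers and -0.10 for fibroblast markers. With the median over probe sets it was 0.029 for KLF and SOX factors. KRT7 was 1.25 and turned to -0.060 without probe sets of the shared kind. Of 278 named genes, the median over probe sets moved 49 by more than the SD over genes of 0.48, adding 16 moved 15, and removal of the trend moved none. The cause was not tested. Signals under a level of 6 limit the size of a difference.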

Other observations

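Neighbouring genes differed together in few places. Over 9954 windows of 20 genes in RefSeq order, the median difference lay between -0.22 and 0.24 from the 1st to the 99th percentile. The highest windows ran from GSTA1 to KHDC1 (0.39), from MT2A to ZNF319 (0.38, with 6 genes 2-fold higher on shTRIB1-1, all metallothioneins) and from ALG6 to SRSF11 (0.36). The lowest ran from TRMT11 to SLC2A12 (-0.40, 16 of 20 genes lower on shTRIB1-1), from GDAP1 to SNX16 (-0.35) and from ABHD10 to POGLUT1 (-0.34). Chromosome medians ran from -0.02 to 0.02 over 23 chromosomes.

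Among 1578 probe sets without a gene symbol that reached a level of 6, 53 were at least 2-fold higher on shTRIB1-1 and 49 at least 2-fold lower, which is 6.46%. Their differences ran from -4.29 to 3.07. Among 904 probe sets with several symbols the counts were 12 and 3 (1.66%).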
